A study of Mus musculus with 72 samples.

Results

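Cd274 and Pdcd1lg2, the genes of the PD-1 ligands PD-L1 and PD-L2, were taken by gene symbol from the deposited count table: 2 genes of the 1224 measured, both among the 1038 that passed a filter on low counts. They were read in tumours of 36 female BALB/c mice aged 6 to 12 weeks, 9 in each of 4 groups. All tumours grew from 4T1, a mouse mammary carcinoma cell line, placed in the thigh on day -6 (the sample labels call the tumour orthotopic), and all were collected on day 6 after treatment on day 0. The BA+RT group received 492 µg of bintrafusp alfa (M7824 in the labels) and radiation, and the BA group 492 µg of bintrafusp alfa alone. The RT group received radiation with the isotype antibody, and the control group 400 µg of the isotype antibody. The sources used here do not state how much radiation was given. The model is a single transplanted cell line in 1 mouse strain, sampled at 1 time.

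PD-1 is an inhibitory receptor of activated T cells, and PD-L1 and PD-L2 are its ligands. PD-L1 is made by many cell types, tumour cells included, and its gene is induced by interferon-γ, in part through IRF1. PD-L2 is found mainly on dendritic cells and macrophages, and its gene is also induced by IL-4 through STAT6. Bintrafusp alfa joins an antibody against PD-L1 to a TGF-β receptor's extracellular domain; it binds the PD-L1 protein, whereas the values here are transcript counts.

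The genes are neighbours on mouse chromosome 19 (GRCm38), both on the plus strand, with 22.8 kb between the end of Cd274 and the start of Pdcd1lg2. Cd274 (ENSMUSG00000016496) spans chr19:29367455-29388095, and its amplicon, chr19:29380321-29380418, lies in coding exon 4 of 7. An annotated antisense gene, AC119228.1, overlaps that amplicon, and the sources used here do not state whether counting used the strand, so reads of the pair cannot be told apart. Pdcd1lg2 (ENSMUSG00000016498) spans chr19:29410919-29471161, and its amplicon, chr19:29410966-29411058, lies in the 5′ UTR, in exon 1 of 6 of transcript Pdcd1lg2-201. The other annotated transcript, Pdcd1lg2-202, lacks that exon, so its RNA is not counted. The Cd274 amplicon is shown because it is the stretch of coding sequence that every Cd274 value below counts (GENCODE vM21, plus strand):
Cd274 amplicon: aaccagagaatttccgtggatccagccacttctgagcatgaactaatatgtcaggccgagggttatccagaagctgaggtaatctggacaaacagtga

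The 250 bases before each RefSeq start (GRCm38.p6, plus strand) are shown because the ligands varied together between mice of a group but differed between groups. Positions count the first transcribed base as 0, both strands were searched, and capitals mark the matches. The Cd274 sequence is chr19:29367188-29367437 and the Pdcd1lg2 sequence is chr19:29410669-29410918.
Cd274 promoter: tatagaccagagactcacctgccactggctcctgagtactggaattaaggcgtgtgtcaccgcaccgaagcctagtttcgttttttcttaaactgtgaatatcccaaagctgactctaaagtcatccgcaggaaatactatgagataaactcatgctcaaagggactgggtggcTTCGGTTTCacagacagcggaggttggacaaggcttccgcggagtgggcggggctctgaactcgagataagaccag
Pdcd1lg2 promoter: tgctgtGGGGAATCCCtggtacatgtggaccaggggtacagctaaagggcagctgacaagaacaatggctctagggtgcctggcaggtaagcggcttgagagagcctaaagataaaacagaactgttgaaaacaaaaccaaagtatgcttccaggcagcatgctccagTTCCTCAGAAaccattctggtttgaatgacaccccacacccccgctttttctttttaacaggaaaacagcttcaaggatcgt
The Cd274 window held 1 interferon-stimulated response core (GAAANNGAA), read on the minus strand as TTCGGTTTC from -76 to -68. That core occurred in 8.56% of 32851 RefSeq windows of 300 bases, longer than the 250 bases shown, as for the shares below. The Pdcd1lg2 window held a STAT6-type palindrome from -82 to -73, found in 6.95% of windows, and overlapping matches to an NF-kB core (GGGNNNNCC) from -244, found in 43.8%. No match was found in the Cd274 window to the STAT6-type palindrome or the NF-kB core, in the Pdcd1lg2 window to the interferon-stimulated response core, or in either to a GAS motif (TTCNNNGAA). A match is a description of letters and not a site shown to be bound.

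Pdcd1lg2 differed strongly between treatments. In CPM, counts scaled to a common library size, the lowest, median and highest mouse had 8.53, 11.1 and 48.2 in BA+RT tumours, 52.5, 108 and 196 in BA tumours, 6.52, 9.40 and 23.6 in RT tumours and 21.6, 27.9 and 166 in control tumours. The means were 16.5 ± 12.4, 121 ± 53.2, 10.8 ± 5.20 and 45.7 ± 46.1 CPM in the same groups (SD, n = 9 each). BA tumours stood highest, control tumours next, and both irradiated groups lowest. The raw counts behind these levels were 16 to 97 in BA+RT, 83 to 321 in BA, 11 to 61 in RT and 30 to 260 in control libraries, so the irradiated values carry the widest counting error. The highest BA+RT value came from mouse 40 and the highest control value from mouse 8. The next highest values were 17.7 CPM in BA+RT and 49.7 CPM in control tumours.

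**Figure D1:**
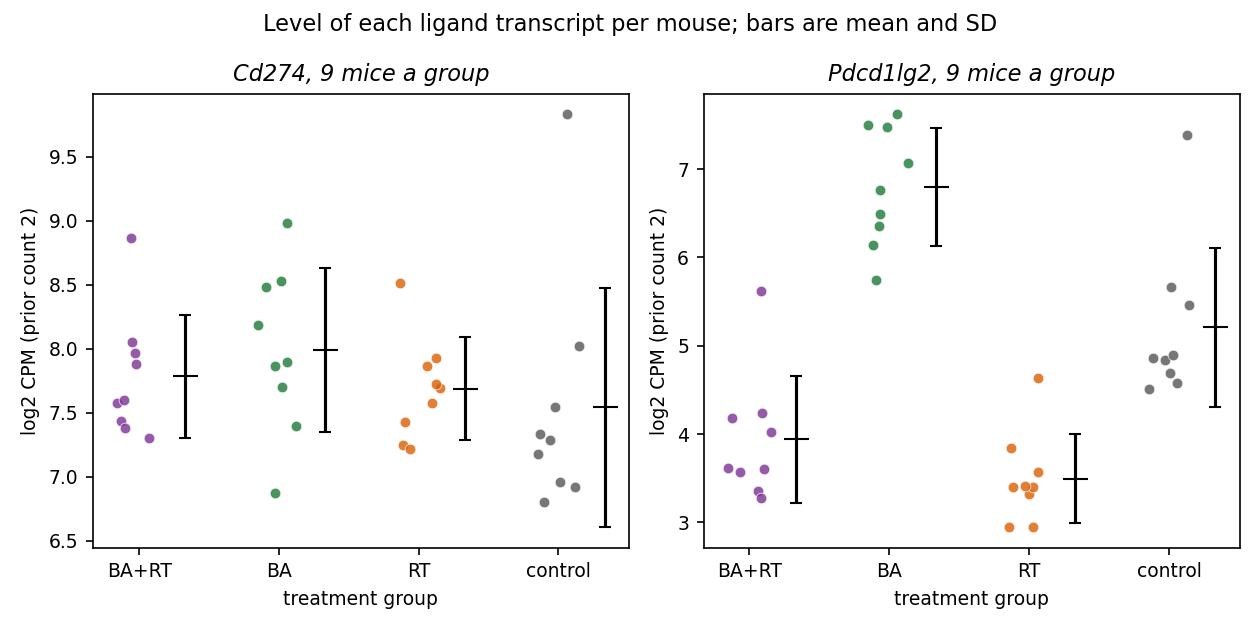
Levels of Cd274 (left) and Pdcd1lg2 (right) in log2 CPM (prior count 2) for each of 9 mice in the BA+RT, BA, RT and control groups; bars give the mean and SD. Pdcd1lg2 in BA tumours lies wholly above both irradiated groups, whereas Cd274 overlaps in all groups.

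Against control, Pdcd1lg2 fell in RT tumours, 4.14-fold lower (log2 fold change -2.05, SE 0.39, adjusted p = 6.95e-05 by edgeR's quasi-likelihood test), and 8 of 9 RT mice lay below the lowest control mouse. It also fell in BA+RT tumours, 2.76-fold lower (-1.46, SE 0.38, edgeR adjusted p = 0.00196), again with 8 of 9 mice below every control. It rose in BA tumours, 2.64-fold higher (1.40, SE 0.37, edgeR adjusted p = 0.00439), where 9 of 9 mice exceeded the control median and 3 of 9 the highest control, mouse 8. Many genes of these panels moved: at an adjusted p below 0.05 the test called 47.6% of 1038 genes in BA+RT against control, 27% in BA against control and 41.6% in RT against control.

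Between the treated groups, Pdcd1lg2 fell 7.27-fold in BA+RT relative to BA (log2 fold change -2.86, SE 0.39, edgeR adjusted p = 2.9e-07), with no overlap between the groups. BA tumours stood 10.9-fold above RT tumours (3.45, SE 0.40, edgeR adjusted p = 1.1e-08), also without overlap. The share of all tested genes whose groups separate in this way, here or against control, was not counted. The separation is therefore not read as particular to Pdcd1lg2. BA+RT and RT tumours, the neighbours at the low end of the order, were not called different (0.59, 95% confidence interval -0.22 to 1.39, edgeR adjusted p = 0.384). The test called 53.5% of genes in BA+RT against BA, 53.8% in BA against RT and 10.8% in BA+RT against RT. The interaction compares the effect of BA with radiation to its effect without. It was -0.81 for Pdcd1lg2 (SE 0.54, interval -1.91 to 0.28, edgeR adjusted p = 0.378), in a test that called 8.29% of genes. Without control mouse 8 it was -1.39 and was called (edgeR adjusted p = 0.0379).

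Cd274 was not called in any of the 7 comparisons. The lowest, median and highest mouse had 157, 193 and 465 CPM in BA+RT tumours, 116, 238 and 506 in BA tumours, 148, 206 and 365 in RT tumours and 110, 155 and 912 in control tumours. All pairs of groups overlapped, although 9 of 9 BA+RT, 8 of 9 BA and 7 of 9 RT mice lay above the control median. Raw counts were 271 to 936, 184 to 667, 249 to 944 and 153 to 1429 in the same groups. The order depended on control mouse 8: the control mean was 241 ± 256 CPM with it and 157 ± 48.1 CPM without it (SD, n = 9 and 8), beside 232 ± 95.2 in BA+RT, 276 ± 119 in BA and 213 ± 66.2 in RT tumours.

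The log2 fold changes of Cd274 against control were -0.05 for BA+RT (95% interval -0.73 to 0.62, edgeR adjusted p = 0.911), 0.19 for BA (-0.48 to 0.87, adjusted p = 0.714) and -0.18 for RT (-0.85 to 0.49, adjusted p = 0.700). These intervals do not show that the groups were alike. Without control mouse 8, Cd274 in BA tumours was 0.82 above control and was called (edgeR adjusted p = 0.0091), and the BA+RT and RT values turned positive, at 0.56 and 0.43, without being called. The difference was 0.12 for BA+RT against RT (-0.55 to 0.80), -0.25 for BA+RT against BA (-0.92 to 0.43) and 0.37 for BA against RT (-0.30 to 1.04). The interaction was -0.07 (-1.02 to 0.88).

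**Figure D2:**
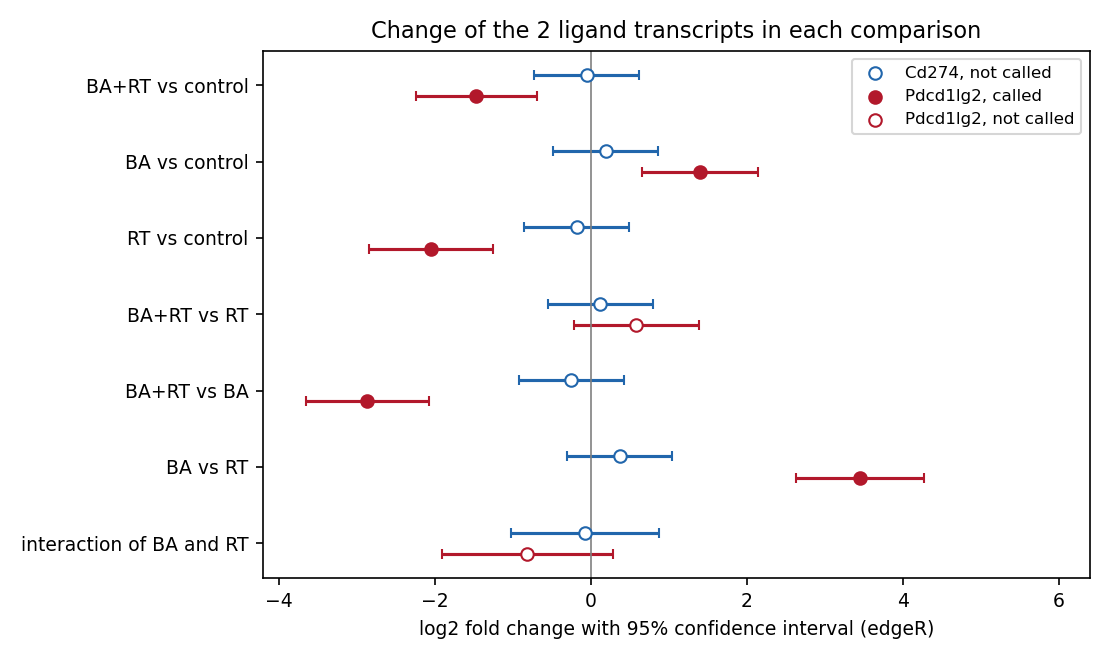
Log2 fold change with 95% confidence interval of Cd274 (blue) and Pdcd1lg2 (red) in 6 pairwise comparisons and the interaction; filled points passed an adjusted p of 0.05 in edgeR. All 5 filled points belong to Pdcd1lg2.

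The ratio of the ligands separated the irradiated from the unirradiated tumours; it is given as a description, with no test. The log2 ratio of Cd274 to Pdcd1lg2 CPM ranged from 3.24 to 4.52 in BA+RT, 0.68 to 1.72 in BA, 3.89 to 4.48 in RT and 1.25 to 2.85 in control tumours. Amplicons differ in efficiency, so the ratio is read across mice and not as relative amounts of the transcripts. Its values in both irradiated groups lay above those of all unirradiated mice. Of the ligands only Pdcd1lg2 was called in any comparison, and ratios of other gene pairs were not computed. The separation is therefore not read as particular to the ligands.

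Within a group the ligands varied together. Pearson's r between their log2 CPM was 0.89 in BA+RT, 0.88 in BA, 0.94 in RT and 0.87 in control tumours (n = 9 each; two-sided exact permutation p 0.00609, 0.00181, 0.000648 and 0.0306, adjusted over 4 groups 0.00812, 0.00363, 0.00259 and 0.0306). Spearman's rho was 0.73, 0.88, 0.98 and 0.35 (exact permutation p 0.0311, 0.00308, 4.96e-05 and 0.359, adjusted 0.0415, 0.00615, 0.000198 and 0.359). Leaving out the 2 mice farthest from the median of Cd274 gave r of 0.42, 0.74, 0.76 and -0.31. The relation in control tumours thus rests on those mice, control 8 among them, and that in BA+RT tumours was weaker without mice 40 and 44.

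**Figure D3:**
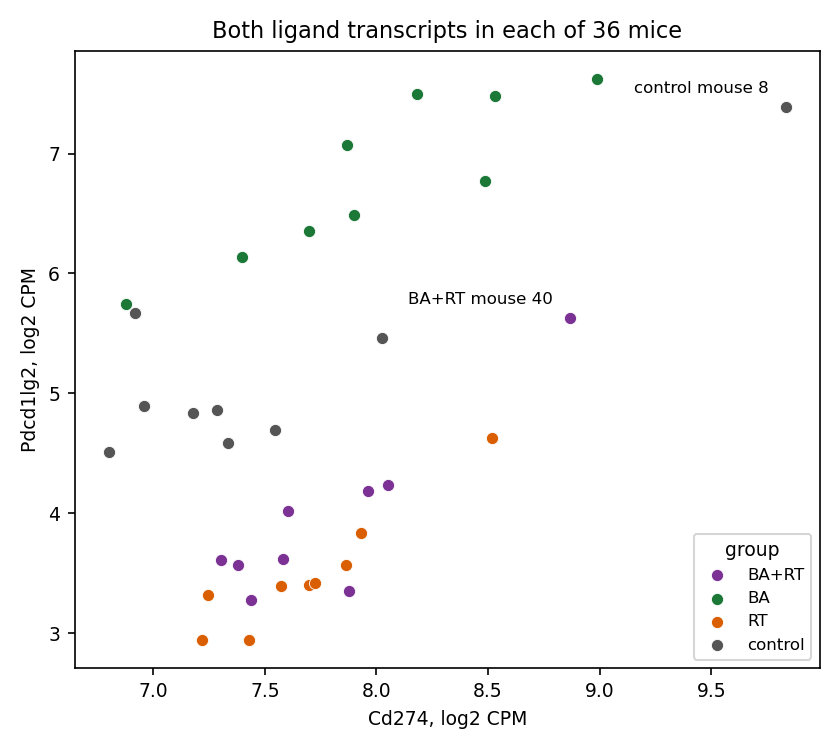
Cd274 against Pdcd1lg2 in log2 CPM, 1 point for each of 36 mice, coloured by group. Irradiated mice lie low on the Pdcd1lg2 axis at the same Cd274 level, and control mouse 8 and BA+RT mouse 40 lie far from their groups.

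Among the genes most like Cd274 across all 36 mice, after subtracting each group mean, were the interferon-induced GTPases Gbp2b (r = 0.966) and Gbp2 (0.958), the death ligand Tnfsf10 (0.926) and the transcription factor Irf1 (0.924). Without control mouse 8 these were 0.944, 0.929, 0.864 and 0.859. Pdcd1lg2 was most like Ciita, the master regulator of MHC class II genes (0.917), then Cd274 (0.872), the ubiquitin-like Ubd (0.844) and the receptor gene Klrk1 (0.844), and without control mouse 8 the values were 0.874, 0.802, 0.793 and 0.769. These are descriptions: the genes of a mouse were read from the same dissected tumour and, within a panel, from the same library.

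**Figure D4:**
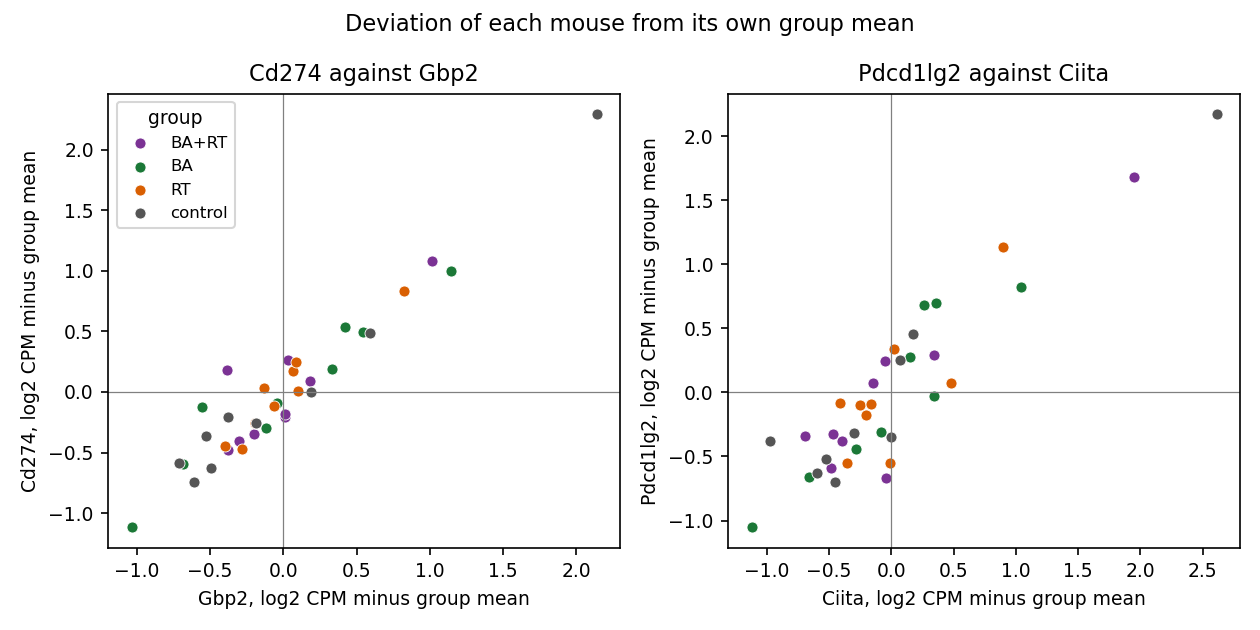
Deviation from the group mean in log2 CPM for each of 36 mice, Cd274 against Gbp2 (left) and Pdcd1lg2 against Ciita (right). Control mouse 8 is the point at the top right of both panels.

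The median r of 13 genes of the interferon-γ route was 0.81 to Cd274 and 0.77 to Pdcd1lg2, beside -0.06 and -0.05 over all tested genes. Its receptor and kinase genes lay far below these medians. For Ifngr1, Ifngr2, Jak1 and Jak2, r was 0.08, -0.11, -0.21 and 0.10 to Cd274. To Pdcd1lg2 it was 0.16, -0.17, -0.17 and 0.04. Without control mouse 8 the route's medians were 0.70 and 0.66. For 5 genes of the IL-4 and STAT6 route the medians to Cd274 and Pdcd1lg2 were -0.093 and 0.072 with all mice, and -0.077 and 0.060 without that mouse. For 9 genes of the NF-kB route they were -0.016 and 0.011 with all mice, and -0.075 and -0.067 without it. For 6 type I interferon genes they were 0.48 and 0.34 with all mice, and 0.34 and 0.18 without it. Single genes of the other lists were high too: Il2rg of the IL-4 and STAT6 list had 0.68 and 0.73, and Ifit3 of the type I list 0.72 and 0.53. In the order given, 13 of 14, 5 of 14, 9 of 15 and 6 of 17 listed genes were tested. The lists differ in make-up, so their medians do not compare the routes.

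The same mice stood out for Ifng, the cytokine itself. It was 24.8 CPM in BA+RT mouse 40 and 61.3 CPM in control mouse 8, beside group medians of 3.20 and 3.01.

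By treatment, of the 13 tested genes of the interferon-γ route, 1 was higher and 4 lower in BA+RT against control, 1 higher and 0 lower in BA against control, and 1 higher and 3 lower in RT against control. Over all 1038 tested genes, 243 were higher and 251 lower in BA+RT (47.6% called), 130 higher and 150 lower in BA (27%) and 213 higher and 219 lower in RT (41.6%), so nothing particular to the route is read from its counts. Ciita fell by 1.36 on the log2 scale in BA+RT and by 2.06 in RT tumours (edgeR adjusted p = 0.0068 and 0.000175), and was 0.27 in BA tumours, not called. The chemokine gene Cxcl10 rose by 1.04 in both irradiated groups. The receptor chain Ifngr1 fell by 0.31 in BA+RT and by 0.32 in RT, and rose by 0.20 in BA.

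Of 6 tested type I interferon genes, 5 were higher in BA+RT (median 1.90) and 5 in RT (median 1.87), and 0 were called in either direction in BA. The medians over all tested genes were 0.0094 in BA+RT and -0.0097 in RT, with 47.6%, 27% and 41.6% of genes called in BA+RT, BA and RT. Of 5 genes of the IL-4 and STAT6 route, 0 were higher and 2 lower in BA+RT, 2 higher and 0 lower in BA, and 2 higher and 2 lower in RT against control. With 5 genes, these counts are not set apart from the same shares over all genes. Irf4, a transcription factor of activated lymphocytes and dendritic cells, fell by 0.62 in BA+RT and by 0.87 in RT and rose by 0.90 in BA (edgeR adjusted p = 0.0281, 0.00365 and 0.00272). Its r to Pdcd1lg2 across mice, after subtracting group means, was 0.11. The other called genes of the list moved otherwise. Arg1 rose by 0.47 in BA and by 0.28 in RT, and Il2rg rose by 0.44 in RT. Ccl17 fell by 0.48 in BA+RT and by 0.52 in RT and was 0.06 in BA, not called. Irf4 levels were low, with medians of 4.54, 13.8, 3.56 and 7.46 CPM in BA+RT, BA, RT and control tumours. Stat6 itself was 0.13, 0.07 and 0.08 and was not called.

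**Figure D5:**
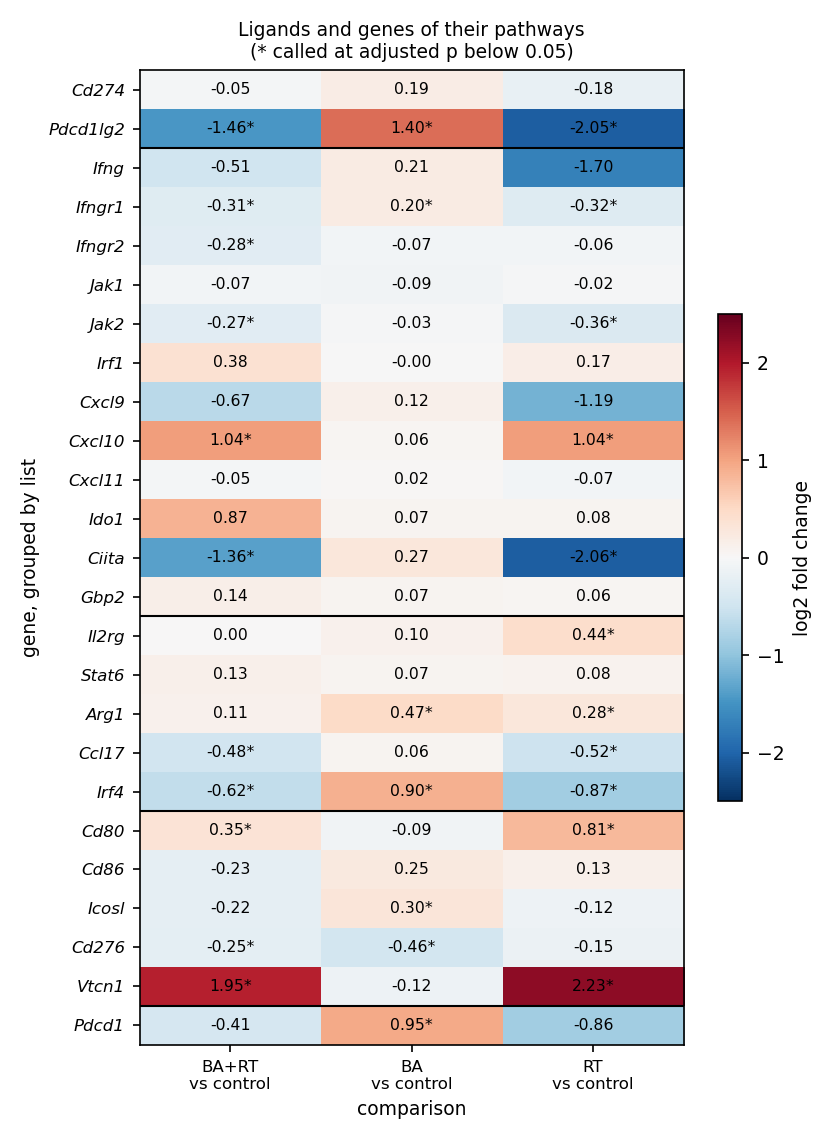
Log2 fold change of the ligands and of genes of the interferon-γ and IL-4/STAT6 routes, the B7 family and the receptor, in BA+RT, BA and RT against control; asterisks mark an edgeR adjusted p below 0.05. Pdcd1lg2, Ciita, Irf4, Ccl17, Jak2 and Ifngr1 were called lower in both irradiated groups, and Cxcl10, Cd80 and Vtcn1 higher in both.

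Pdcd1, the PD-1 receptor, had 3.73 CPM at the median in BA+RT, 10.6 in BA, 2.07 in RT and 4.69 in control tumours. It rose in BA against control (log2 fold change 0.95, edgeR adjusted p = 0.0323) and fell by 1.37 in BA+RT relative to BA (edgeR adjusted p = 0.000959). It was -0.41 in BA+RT and -0.86 in RT against control, not called. Cd80, a costimulatory ligand that also binds PD-L1, rose by 0.35 in BA+RT and by 0.81 in RT and was -0.09 in BA. Among other B7 genes, Vtcn1 rose by 1.95 in BA+RT and by 2.23 in RT. Its levels were low, with medians of 7.45, 1.69, 9.05 and 1.91 CPM in BA+RT, BA, RT and control tumours. Cd276 fell by 0.25 in BA+RT and by 0.46 in BA. Icosl, the ligand of ICOS, rose by 0.30 in BA (edgeR adjusted p = 0.029), and Cd86, a costimulatory ligand, was -0.23, 0.25 and 0.13 in BA+RT, BA and RT against control, not called.

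In bulk tumours fewer cells of a type and less RNA per cell cannot be told apart. The summed level of 9 T cell markers was 29.8 to 128 CPM (median 42.1) in BA+RT, 83.4 to 360 (159) in BA, 12.7 to 162 (25.1) in RT and 37 to 193 (48.5) in control tumours. For 5 MHC class II genes, a list chosen after values were seen, the ranges were 1900 to 8597 (2453), 8291 to 26549 (16238), 1537 to 3453 (2302) and 6538 to 26387 CPM (9493), the same order of groups as Pdcd1lg2 in their medians except that BA+RT and RT lay close. For 7 macrophage markers the medians were 4314, 4844, 4829 and 4434 CPM, although single markers went opposite ways: 2 were higher and 2 lower in BA+RT, 2 higher and 1 lower in BA, and 4 higher and 1 lower in RT against control. Adgre1 rose by 0.41 in BA+RT and by 0.69 in RT, and Csf1r fell by 0.47 in BA+RT and by 0.55 in RT. For the pan-leukocyte gene Ptprc the medians were 684, 854, 823 and 815. For 7 dendritic cell genes, also chosen after values were seen, they were 612, 773, 608 and 631 CPM, with Lamp3 under 1 CPM at the median in each group. Of the 4 of these genes that passed the filter on low counts, 0 were higher and 2 lower in BA+RT, 1 higher and 0 lower in BA, and 0 higher and 1 lower in RT against control. Over all tested genes 47.6%, 27% and 41.6% were called in these comparisons. With lists this small, the counts of macrophage, class II and dendritic cell genes are not set apart from those shares. Cd83, a maturation marker, fell by 1.04 in BA+RT and by 1.08 in RT on the log2 scale. Ccr7, a homing receptor of mature dendritic cells and T cells, fell by 0.56 in BA+RT and rose by 0.94 in BA. In RT it was -0.29, not called. Irf8 was 0.12, 0.20 and 0.08 in BA+RT, BA and RT, and Clec10a -0.70, -0.68 and -0.62, none of them called. No measured marker of these lists was at 0 in all mice of a group, and their part in the Pdcd1lg2 differences was not tested.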

How the data were processed

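RNA of 36 tumours was read with 2 targeted amplicon panels, giving 72 libraries; both ligands are on panel 1. The authors deposited whole-number counts per amplicon, not normalized, and rlog values on a log2 scale made with DESeq2, per the file headers and the submitters' processing notes. The sources used here name no aligner or counter and do not say whether molecular barcodes were counted. Position columns are headed GRCh38, but the ligand amplicons lie inside the named mouse genes on GRCm38, which is used here. Panel 1 totals were 1756429 to 2178557 counts in BA+RT, 959532 to 1763286 in BA, 1526991 to 2616197 in RT and 1060824 to 1956764 in control libraries. Genomic DNA control rows (2.32e-05% of counts) were left out.

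Each panel was fitted in edgeR 4.0.16 (R 4.3.3) with all 4 groups, TMM, the default filter and a two-sided quasi-likelihood F test (robust), Benjamini-Hochberg adjusted over 1038 genes and called below 0.05. SE is the absolute log2 fold change over the square root of F. The genes named are the ligands, tested genes of the pathway lists, and, of the 5 genes most correlated with each ligand, those reported (1 gene is not reported here), with marker lists for other cell types, from which Adgre1, Csf1r, Cd83 and Ccr7 were named after their values were seen. The members and lists were chosen with earlier results of these data known. Correlations within a group used exact permutation tests in scipy 1.17.1. The fitting was tested on simulated data. Alternatives were DESeq2 1.42.0, limma 3.58.1 (voom and rlog values), other scalings, no filter, thinned counts, the 2 groups alone and leaving out each mouse. Separate mice are the replicates.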

Additional observations from a re-analysis of the deposited data

Results flagged for a closer look

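Of 8 sets of 9 mice looked at (2 ligands in 4 groups), 4 had a highest mouse far from the others. Chance gives about 1 in 20 for a single set, but these sets are not independent. Both ligands were read in the same mice and varied together, so the 4 flags come from BA+RT mouse 40 and control mouse 8 alone. The gap to the next mouse, as a share of the group's range in log2 CPM, was 0.522 for Cd274 and 0.591 for Pdcd1lg2 in BA+RT mouse 40. It was 0.596 for Cd274 and 0.597 for Pdcd1lg2 in control mouse 8. All 4 exceed the 95% limit of Dixon's test for 9 mice. Both mice were also high for Ifng, and the reason was not tested.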

How the results depend on the processing

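The 5 called Pdcd1lg2 differences kept their direction and call without any 1 of 36 mice and under 9 other alternatives. Without 1 mouse they ranged from -1.86 to -0.90 (BA+RT against control), 1.28 to 1.98 (BA against control), -2.32 to -1.49 (RT against control), -3.26 to -2.75 (BA+RT against BA) and 3.33 to 3.72 (BA against RT). The deposited rlog values, which shrink low counts, gave smaller sizes: -0.62, 0.94, -0.81, -1.56 and 1.74. The Pdcd1lg2 interaction ranged from -1.39 to -0.55, called only without control mouse 8. Cd274 without 1 mouse ranged from -0.25 to 0.56 (BA+RT against control), 0.034 to 0.82 (BA against control, called only without control mouse 8), -0.34 to 0.43 (RT against control), -0.069 to 0.27 (BA+RT against RT) and -0.68 to 0.091 (interaction). Uncalled Cd274 values changed sign for BA+RT against control and RT against control with reference gene factors (0.11 and 0.020), limma voom (0.25 and 0.17) and rlog (0.13 and 0.059).

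Settings chosen after seeing the data left out control mouse 8 with BA+RT mouse 40, or these with RT mouse 27, the highest mouse of its group for both ligands. The first gave Cd274 values of 0.37 (BA+RT against control), 0.82 (BA against control, called), 0.44 (RT against control), -0.068 (BA+RT against RT) and -0.88 (interaction, called, edgeR adjusted p = 0.0458), a Pdcd1lg2 interaction of -1.79 (called) and 151 genes called for the interaction, beside 86 with all mice. The second gave Cd274 values of 0.37 (BA+RT against control), 0.82 (BA against control, called), 0.30 (RT against control) and 0.52 (BA against RT, called, edgeR adjusted p = 0.0308), a Pdcd1lg2 interaction of -1.55 (called) and 146 genes. The Cd274 calls thus differ between these choices of mice. The cause was not tested.

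Scaling by 9 reference genes shifted the median log2 fold change over tested genes to 0.19 (RT against control), 0.14 (BA+RT against control), 0.20 (BA+RT against BA) and -0.25 (BA against RT). Calls higher and lower were then 422 and 79, 387 and 157, 472 and 147, and 118 and 536, beside 213 and 219, 243 and 251, 281 and 274, and 265 and 293 with TMM. For BA against control they were 99 and 183 beside 130 and 150, and for BA+RT against RT 19 and 96 beside 38 and 74. The alternative of a second panel was not run, since neither ligand is on panel 2. No paired analysis was possible because the groups share no mouse numbers. Low Pdcd1lg2 counts in irradiated libraries limit its precision there.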
